A study of Homo sapiens with 12 samples.

Results

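A set of 10 selenium genes was followed in human liver spheroids given total parenteral nutrition (TPN), a mixture fed into the blood that brings its own trace elements. They were chosen by gene symbol from the deposited expression table, and all of these members were found among its 16705 genes. The members are SELENOP, the plasma carrier of selenium; the glutathione peroxidases GPX1, GPX3 and GPX4; the endoplasmic reticulum proteins SELENOK and SELENOM; the small cytosolic protein SELENOW; the thyroid hormone deiodinase DIO1; and SEPHS2 and SECISBP2, which serve the making and insertion of selenocysteine.

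The spheroids were co-cultures that mixed an excess of hepatoma cells (C3A, cloned from HepG2) with hepatic stellate cells (LX-2, immortalised and in an activated state). Once formed, they were left untreated or exposed to 1% TPN for 24 h or 144 h, which gave 4 groups of 3 libraries: the untreated and the TPN-exposed spheroids of each time. TPN joined amino acids with electrolytes, glucose, a lipid emulsion, a trace element concentrate and vitamin preparations, while all groups shared the same minimum essential medium with serum, itself a source of selenium. Each group models 1 hepatoma clone with 1 stellate line, and each library pooled many spheroids. The replicates were labelled by number, and the methods of the study speak of independent experiments.

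Selenoproteins carry selenocysteine, an amino acid read from a UGA codon that would otherwise end translation. Reading it needs a hairpin in the mRNA, called the SECIS element, the protein SECISBP2 that binds it, a dedicated elongation factor and a tRNA charged from selenophosphate, which SEPHS2 makes. When selenium is short, the mRNAs of some selenoproteins, GPX1 and SELENOW among them, are known to be degraded sooner than others, such as GPX4. The liver takes up dietary selenium and sends it to other organs as SELENOP.

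The values are FPKM, fragments scaled to transcript length and to mapped fragments, which divide by transcript length and so allow levels of different genes to be compared. Libraries summed to between 561657 and 583722 FPKM and held 10936 to 11074 genes at 1 FPKM or more, and steps in the low values gave an estimate of 18700000 fragments a library. Of the hepatocyte markers, 9 of 10 were expressed and CYP7A1 was at or near 0, with a summed level of 11854 to 12223 FPKM at 24 h and 13225 to 14205 at 144 h in untreated spheroids and 10919 to 10951 and 10322 to 11059 with TPN. The 10 stellate markers summed to 124 to 129 FPKM at 24 h and 73.5 to 77.4 at 144 h in untreated spheroids and 111 to 112 and 69.5 to 72.0 with TPN, mostly from ACTA2 and SPARC, with DES and LUM near 0 throughout. All 5 endothelial markers and the macrophage markers MARCO and CSF1R were near 0. CD68, also listed for macrophages, lay between 45.9 and 64.8 FPKM, and the bile duct markers KRT19, EPCAM and SOX9 were expressed.

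The 10 members spanned a wide range of levels. In untreated 24 h the order of mean FPKM was SELENOP (741), GPX4 (407), SEPHS2 (192), GPX3 (135), GPX1 (93.1), SELENOW (29.5), SELENOK (17.3), DIO1 (12.9), SECISBP2 (10.9) and SELENOM (2.78), and no neighbours in that order shared any of their range over the 3 libraries. After 144 h of TPN, GPX3 had moved up to second place at 419 FPKM and its libraries overlapped those of GPX4 at 389 FPKM. That was the only overlap between neighbours in any of the 4 groups.

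After 24 h of TPN, 3 of the 10 members had an adjusted p below 0.05 in limma, and all 3 were lower than in untreated spheroids: DIO1, SEPHS2 and SELENOP. Of all 11713 genes tested, 10.5% were called at 24 h, 5.46% as lower. The median log2 fold change of the members was -0.11, against -0.0045 over all genes. After 144 h, 8 members were called, 3 higher (GPX3, SELENOW and SECISBP2) and 5 lower (SELENOP, SELENOK, SEPHS2, GPX1 and GPX4). At that time 52.5% of all genes were called, 24.2% as higher and 28.3% as lower, so a call was common in this comparison. The median of the members was -0.19, against -0.018 over all genes. The 3 libraries with TPN lay wholly apart from the 3 without it for 9 of the members at 144 h, 3 higher and 6 lower, as they did for 57.3% of all genes.

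The called changes of the members with TPN were moderate. None of the 10 passed the stricter threshold of an absolute log2 fold change above 0.58 together with an adjusted p below 0.05 in limma at 144 h, which 9.48% of all genes passed, although 9 of the 10 had an unadjusted p below 0.05. The called changes at 144 h ran from -0.41 for SELENOP to 0.42 for GPX3.

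**Figure D1:**
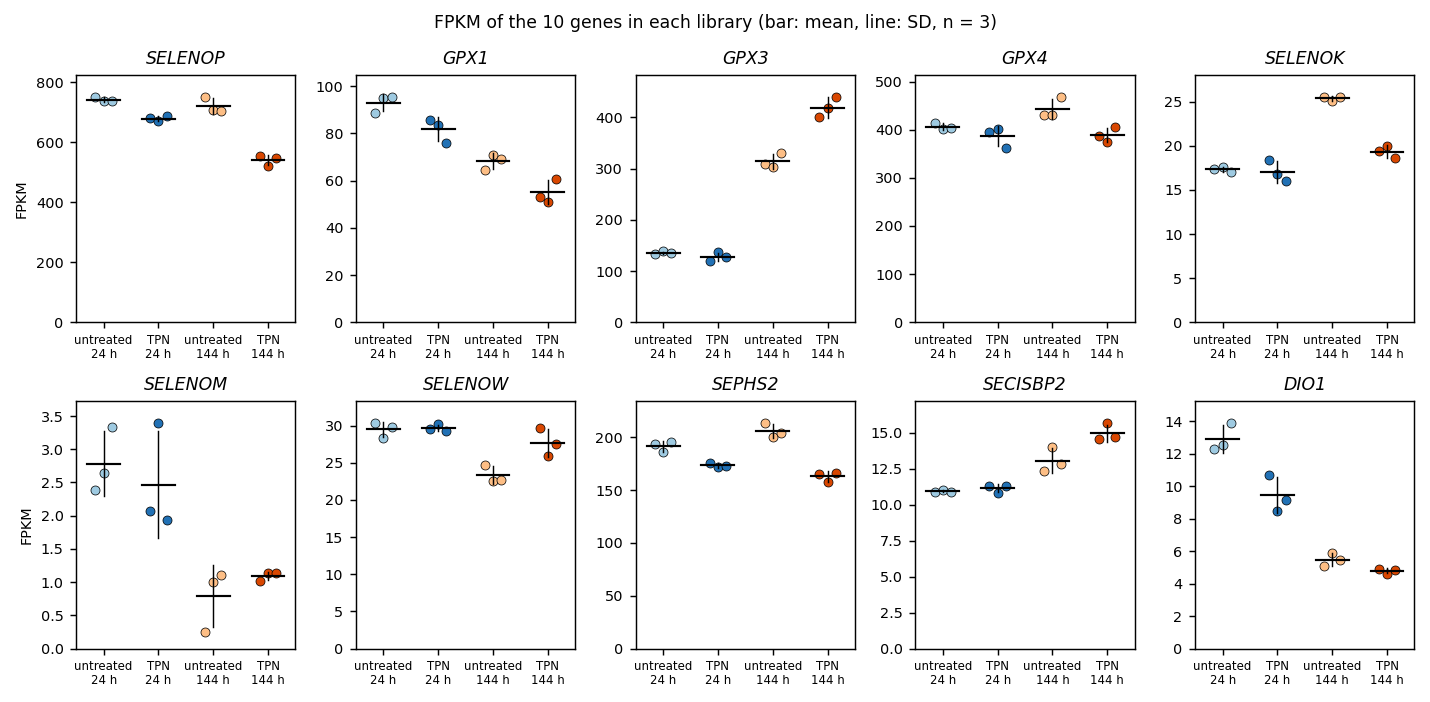
FPKM of the 10 genes (vertical axes, each from 0) in the 3 libraries of each group (horizontal axis), with points for libraries, horizontal bars for means and vertical lines for the SD. GPX3 stood highest in the 3 TPN 144 h libraries, between 400 and 440 FPKM, where SELENOP stood lowest, between 521 and 554 FPKM.

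SELENOP, the secreted protein that carries most of the selenium in plasma, was the most abundant member in every group. It lies on chromosome 5 from 42799880 to 42811893 (GRCh38.p13), where CCDC152 overlaps it. Its FPKM was 750.4, 737.3 and 736.6 in untreated 24 h and 679.4, 670.5 and 686.2 in TPN 24 h. It was 750.2, 706.0 and 704.1 in untreated 144 h and 554.2, 521.1 and 545.8 in TPN 144 h. The TPN libraries lay below every untreated library of the same time, by a small step at 24 h and a larger one at 144 h.

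The log2 fold change of SELENOP with TPN was -0.13 ± 0.031 (SE, adjusted p = 0.016) at 24 h and -0.41 ± 0.031 (adjusted p = 1.13e-07) at 144 h. Against untreated spheroids the level fell by 8.46% at 24 h and by 24.9% at 144 h. The difference between the 2 effects, tested as an interaction, was -0.29 ± 0.043 (adjusted p = 2.85e-04). The 24 h call was lost without untreated 24 h replicate 1 (adjusted p = 0.061) or TPN 24 h replicate 2 (adjusted p = 0.063), and with all libraries when the variance trend was dropped (adjusted p = 0.054). In these bulk libraries, fewer cells of a type and less RNA per cell cannot be told apart. At 24 h, 5 of the 9 hepatocyte markers tested were also lower and 0 higher, beside 5.46% of all genes lower, and at 144 h 7 were lower and 0 higher, beside 28.3% and 24.2% of all genes. Of the 8 stellate markers tested, 1 was lower at 24 h, ACTA2 (-0.29, adjusted p = 4.23e-04), and 0 were higher. At 144 h 4 were lower and 0 higher, beside the same shares of all genes, among them COL1A1 (-1.25) and PDGFRB (-0.40). ACTA2 (-0.076, adjusted p = 0.13) and SPARC (0.059, adjusted p = 0.32) were not called at 144 h. COL3A1 and COL1A2 had at most 0.60 and 0.33 FPKM at 144 h and passed the filter on low values only through the 24 h groups, so nothing is read from their calls. CD68 was higher with TPN at 24 h (0.17, adjusted p = 0.0037) and at 144 h (0.41, adjusted p = 1.84e-07). CD14, the other macrophage marker tested, was called at neither time (-0.40, adjusted p = 0.26, and -0.084, adjusted p = 0.75). Of the bile duct markers, KRT19 was lower at both times (-0.25, adjusted p = 7.02e-04, and -0.52, adjusted p = 8.28e-08). EPCAM (-0.0074 and 0.0011) and SOX9 (9.58e-04 and -0.040) were called at neither. The part of any of these markers in the results of SELENOP and the other members was not tested.

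The 250 bases before the annotated start of SELENOP are shown beside those of GPX3, the member with the largest called rise with TPN at 144 h, and GPX2, a selenoprotein outside the 10 that rose too. Capitals mark matches, on either strand, to TGACNNNGC, the core of the antioxidant response element, and to TGTTTAC, a core bound by FOXO factors. The sequences run 5′ to 3′ along the gene and come from RefSeq (GRCh38.p14): SELENOP from the minus strand of chr5:42811893-42812142, GPX3 from the plus strand of chr5:151020341-151020590 and GPX2 from the minus strand of chr14:64942746-64942995.
SELENOP: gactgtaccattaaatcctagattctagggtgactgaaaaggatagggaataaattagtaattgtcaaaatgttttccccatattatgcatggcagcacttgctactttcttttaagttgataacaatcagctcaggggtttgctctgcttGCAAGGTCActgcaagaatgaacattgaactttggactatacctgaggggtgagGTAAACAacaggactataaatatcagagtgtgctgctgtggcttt
GPX3: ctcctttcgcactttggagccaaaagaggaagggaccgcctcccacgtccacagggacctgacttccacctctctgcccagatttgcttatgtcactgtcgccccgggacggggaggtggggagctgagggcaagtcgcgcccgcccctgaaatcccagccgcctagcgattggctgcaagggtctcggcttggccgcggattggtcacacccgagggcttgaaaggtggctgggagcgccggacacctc
GPX2: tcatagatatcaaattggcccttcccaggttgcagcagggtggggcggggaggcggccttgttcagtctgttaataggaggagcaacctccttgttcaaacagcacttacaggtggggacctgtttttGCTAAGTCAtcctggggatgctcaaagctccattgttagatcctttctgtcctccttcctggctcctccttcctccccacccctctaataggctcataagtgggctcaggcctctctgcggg

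The SELENOP window held GCAAGGTCA, an antioxidant core on the opposite strand that begins 99 bases before the start, and GTAAACA, a FOXO core on the opposite strand that begins 45 bases before it. The GPX2 window held GCTAAGTCA 122 bases before its start, and the GPX3 window held neither set of letters. Of the 10 members, 9 had a window, and since some have several starts there were 12 windows. The antioxidant core was found in 3 of the 12 (SELENOP, SELENOK and 1 of the 2 windows of SECISBP2) and the FOXO core in 1 (SELENOP), while 10.9% and 2.98% of all 35116 windows of that length held them. Members with the antioxidant core included genes lower (SELENOP, SELENOK) and higher (SECISBP2) at 144 h. Of the 15 other selenoproteins with a window, 3 held the antioxidant core, in 4 of 22 windows: GPX2, SELENON and TXNRD1. All 3 were called higher with TPN at 144 h. The FOXO core was found in 0 of those 22 windows. Whether either core had a part in any change was not tested. All of these are matches of letters only, and binding was not measured.

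Of 4 factors known to drive SELENOP in liver, FOXO1, a forkhead factor held back by insulin, had 5.65, 5.83 and 5.95 FPKM in untreated 24 h and 4.42, 4.55 and 4.92 in TPN 24 h. It had 6.5, 6.96 and 6.5 in untreated 144 h and 3.79, 3.81 and 3.45 in TPN 144 h. FOXO1 was lower with TPN at both times without overlap, with log2 fold changes of -0.32 ± 0.062 (adjusted p = 0.0042) and -0.84 ± 0.062 (adjusted p = 1.15e-07). HNF4A, a nuclear receptor that maintains hepatocyte genes, was called lower at 144 h (log2 fold change -0.35 ± 0.028, adjusted p = 2.36e-07), and its interaction was -0.30 (adjusted p = 1.05e-04). FOXO3 was higher at 144 h (0.17 ± 0.055, adjusted p = 0.018), a call lost without untreated 144 h replicate 3 or TPN 144 h replicate 1 or 2 (adjusted p = 0.053, 0.051 and 0.072). PPARGC1A, a coactivator of fasting genes, was called at neither time.

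Over the 12 libraries, the genes whose log2 values followed SELENOP most closely were AFP (Pearson's r = 0.991), NR0B2 (0.989), NCOA4 (0.989), NAALADL1 (0.988) and C2orf72 (0.988). The 12 points share 4 groups, and 332 genes had r of at least 0.9.

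GPX3, the glutathione peroxidase released into plasma, rose both with time and with TPN. It lies on chromosome 5 from 151020591 to 151028988. It had 133.5, 138.3 and 134.6 FPKM in untreated 24 h, 120.1, 136.5 and 126.7 in TPN 24 h, 309.1, 302.1 and 330.6 in untreated 144 h, and 400.0, 417.7 and 439.7 in TPN 144 h. At 24 h the groups overlapped (log2 fold change -0.086 ± 0.048, adjusted p = 0.30), and the change was -0.043 without TPN 24 h replicate 1 (adjusted p = 0.69) and -0.14 without TPN 24 h replicate 2 (adjusted p = 0.10). At 144 h every TPN library was above every untreated one, with a log2 fold change of 0.42 ± 0.048 (adjusted p = 7.12e-06), or 33.5% more. The interaction of 0.50 ± 0.067 (adjusted p = 1.10e-04) held the change of effect between the times.

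GPX1, the cytosolic glutathione peroxidase, went the other way. Its gene spans chromosome 3 from 49357176 to 49358353, and RefSeq lists 2 pseudogenes of it, so some of its fragments may have been shared. Its FPKM was 88.8, 94.99 and 95.4 in untreated 24 h, 85.6, 83.5 and 75.9 in TPN 24 h, 64.3, 70.9 and 69.3 in untreated 144 h, and 53.1, 51.1 and 60.7 in TPN 144 h. The TPN libraries lay below the untreated ones at both times. The log2 fold change was -0.19 ± 0.063 at 24 h (adjusted p = 0.073, and 0.038 when only the 24 h groups were fitted) and -0.31 ± 0.063 at 144 h (adjusted p = 8.59e-04). The difference between the 2 effects did not pass the test (-0.12, 95% interval -0.31 to 0.067, adjusted p = 0.32), and was -0.20 without TPN 144 h replicate 3 (adjusted p = 0.067) and -0.073 without TPN 144 h replicate 2 (adjusted p = 0.58).

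GPX4, which reduces lipid peroxides within membranes and guards against ferroptosis, was the second most abundant member in 3 of the 4 groups. Chromosome 19 holds it from 1103994 to 1106779. It had 414.1, 401.8 and 403.9 FPKM in untreated 24 h, 395.9, 400.5 and 362.6 in TPN 24 h, 430.5, 430.9 and 467.8 in untreated 144 h, and 387.8, 375.3 and 404.7 in TPN 144 h. At 24 h all 3 TPN values were below the untreated ones, by a margin that did not pass the test (log2 fold change -0.075 ± 0.043, adjusted p = 0.32), and the change was -0.030 without TPN 24 h replicate 3 (adjusted p = 0.75). At 144 h the change was -0.19 ± 0.043 (adjusted p = 0.0024) with no overlap, so that the level fell by 12.1%. The 3 peroxidases among the members therefore split at 144 h, GPX3 rising where GPX1 and GPX4 fell.

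SELENOK, a membrane protein of the endoplasmic reticulum that helps in protein degradation and palmitoylation, changed with TPN at 144 h. Its gene runs on chromosome 3 from 53884417 to 53891885, with 3 pseudogenes in RefSeq. Its FPKM was 17.4, 17.6 and 17.0 in untreated 24 h and 18.4, 16.8 and 16.0 in TPN 24 h, which overlapped. It was 25.5, 25.1 and 25.5 in untreated 144 h and 19.4, 20.0 and 18.6 in TPN 144 h, with no overlap. The log2 fold change was -0.025 ± 0.048 at 24 h (adjusted p = 0.82) and -0.39 ± 0.048 at 144 h (adjusted p = 1.45e-05), with an interaction of -0.37 ± 0.068 (adjusted p = 0.0013). Of 7 partners of the selenoproteins of this compartment, DERL1, a subunit of the degradation channel, was called at 144 h (0.17, adjusted p = 6.21e-04), beside 52.5% of all genes, and the other 6 lay between -0.086 and 0.041 without a call.

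SELENOM, a thioredoxin-like protein of the same compartment, was the lowest member and the least certain. The gene is on chromosome 22 from 31104777 to 31107573. It had 2.38, 2.64 and 3.33 FPKM in untreated 24 h, 2.07, 3.39 and 1.93 in TPN 24 h, 0.25, 1.00 and 1.11 in untreated 144 h, and 1.02, 1.13 and 1.13 in TPN 144 h. One fragment on a transcript of 720 bases was worth about 0.119 FPKM at the estimated depth, so the lowest value rests on very few fragments. The 144 h groups overlapped (log2 fold change 0.62 ± 0.36, adjusted p = 0.17), and the change ran from 0.047 (adjusted p = 0.87) without untreated 144 h replicate 1, the library at 0.25 FPKM, to 0.87 (adjusted p = 0.082) without replicate 2 and 0.94 (adjusted p = 0.0495) without replicate 3. The size of the SELENOM difference thus rested on 1 library, and no change with TPN was called with all 12.

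SELENOW, a small redox protein whose mRNA is known to track selenium supply, was level at 24 h and higher with TPN at 144 h. The gene is on chromosome 19 from 47778511 to 47784688, with 1 pseudogene in RefSeq. It had 30.3, 28.4 and 29.8 FPKM in untreated 24 h, 29.6, 30.2 and 29.3 in TPN 24 h, 24.7, 22.6 and 22.7 in untreated 144 h, and 29.7, 26.0 and 27.5 in TPN 144 h. The 144 h groups did not overlap, with a log2 fold change of 0.25 ± 0.050 (adjusted p = 9.36e-04), against 0.0095 ± 0.050 at 24 h (adjusted p = 0.94). The interaction was 0.24 ± 0.070 (adjusted p = 0.021), and was lost without untreated 24 h replicate 1 or untreated 144 h replicate 2 (adjusted p = 0.052 in both).

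DIO1, which activates thyroid hormone by removing an iodine atom, had its called change at 24 h. The gene is on chromosome 1 from 53891239 to 53911086, where LOC124904180 overlaps it. Its FPKM was 12.3, 12.5 and 13.9 in untreated 24 h and 10.7, 8.50 and 9.17 in TPN 24 h. It was 5.11, 5.89 and 5.45 in untreated 144 h and 4.91, 4.62 and 4.83 in TPN 144 h. TPN libraries lay below untreated ones at both times. The log2 fold change was -0.45 ± 0.080 at 24 h (adjusted p = 0.0026), the largest of the called members at that time, and -0.19 ± 0.080 at 144 h (adjusted p = 0.062). The 144 h change was called without untreated 144 h replicate 1 (adjusted p = 0.039), with quantile normalization (adjusted p = 0.042) and when only the 144 h groups were fitted (adjusted p = 0.049). The 2 effects were not shown to differ (interaction 0.26, 95% interval 0.012 to 0.50, adjusted p = 0.10), although without TPN 24 h replicate 1 the interaction was called (0.35, adjusted p = 0.021).

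SEPHS2, the selenophosphate synthetase that is itself a selenoprotein, followed SELENOP in direction at both times. It lies on chromosome 16 from 30443631 to 30445874, with 1 pseudogene in RefSeq. Its FPKM was 193.8, 185.8 and 195.5 in untreated 24 h, 175.7, 171.8 and 173.0 in TPN 24 h, 213.4, 200.4 and 204.7 in untreated 144 h, and 165.2, 157.4 and 166.5 in TPN 144 h. The TPN and untreated libraries did not overlap at either time. The log2 fold change was -0.14 ± 0.032 at 24 h (adjusted p = 0.010) and -0.34 ± 0.032 at 144 h (adjusted p = 1.12e-06), with an interaction of -0.20 ± 0.045 (adjusted p = 0.0053).

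SECISBP2, the SECIS-binding protein and the only member that is no selenoprotein, was higher with TPN at 144 h. It lies on chromosome 9 from 89318500 to 89367164, where SEMA4D overlaps it. It had 10.9, 11.1 and 10.9 FPKM in untreated 24 h, 11.3, 10.8 and 11.3 in TPN 24 h, 12.3, 14 and 12.9 in untreated 144 h, and 14.6, 15.7 and 14.7 in TPN 144 h. Every TPN 144 h library was above every other library. The log2 fold change was 0.20 ± 0.050 at 144 h (adjusted p = 0.0045) and 0.026 ± 0.050 at 24 h (adjusted p = 0.81). The 24 h change ran from 0.015 to 0.048 over the alternatives, without a call. The interaction of 0.17 did not pass the test (adjusted p = 0.084), and it did with quantile normalization (0.20, adjusted p = 0.049) and without untreated 144 h replicate 2 (0.22, adjusted p = 0.022).

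**Figure D2:**
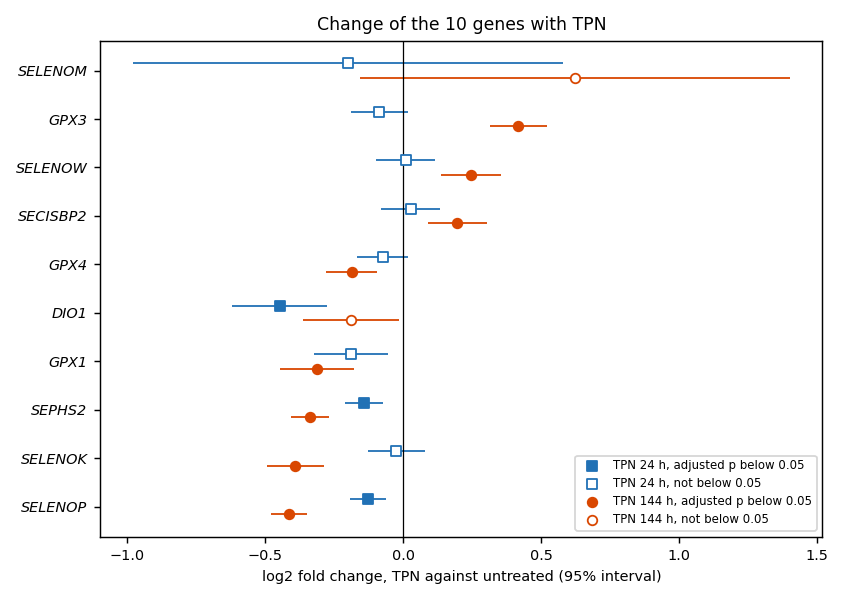
Log2 fold change with TPN against untreated spheroids (horizontal axis) for the 10 genes (vertical axis, ordered by the 144 h value), with squares for 24 h, circles for 144 h, lines for 95% intervals and filled symbols for adjusted p below 0.05. At 144 h, 5 filled circles lie left of 0 and 3 to its right, and SELENOM has the widest intervals.

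By the test of the interaction, 5 of the 10 members responded differently at the 2 times: GPX3 and SELENOW upward and SELENOP, SELENOK and SEPHS2 downward. Over all genes 30.4% were called in this test, which uses both pairs of groups and so shares its libraries with them.

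The genes of the wider pathway were taken from lists chosen with earlier results of these data known. Of 16 other selenoproteins, 14 were in the table and 12 had enough expression for the test, with DIO2 and SELENOV near 0. At 24 h, 2 were higher (TXNRD1, GPX2) and 1 was lower (SELENOT), beside 10.5% of all genes called. At 144 h, 3 were higher (TXNRD1, GPX2, SELENON), 6 were lower (TXNRD3, MSRB1, SELENOO, SELENOT, SELENOS, SELENOF) and 3 were not called, beside 24.2% of all genes higher and 28.3% lower. With the members that are selenoproteins added, 21 were tested, of which 5 were higher and 11 lower at 144 h against the same shares, with a median log2 fold change of -0.13 beside -0.018 over all genes.

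TXNRD1, the cytosolic thioredoxin reductase, was the selenoprotein with the widest step. It had 113.7, 113.5 and 113.2 FPKM in untreated 24 h, 214.1, 209.6 and 218.1 in TPN 24 h, 100.8, 97.5 and 98.7 in untreated 144 h, and 289.6, 301.9 and 292.1 in TPN 144 h. No TPN library came near an untreated one, and the log2 fold change was 0.91 ± 0.026 at 24 h (adjusted p = 4.46e-11) and 1.57 ± 0.026 at 144 h (adjusted p = 1.35e-13).

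GPX2, a glutathione peroxidase best known from the gut, stood next to SELENOP in level in untreated 24 h and above it in TPN 24 h and TPN 144 h. It had 632.2, 673.6 and 620.7 FPKM in untreated 24 h, 728.9, 741.8 and 741.8 in TPN 24 h, 315.4, 305.3 and 316.6 in untreated 144 h, and 599.2, 604.3 and 645.8 in TPN 144 h. It was lower at 144 h than at 24 h in untreated spheroids and lost much less of its level with TPN. Its log2 fold change with TPN was 0.20 ± 0.035 at 24 h (adjusted p = 0.0022) and 0.98 ± 0.035 at 144 h (adjusted p = 1.28e-10).

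The lower selenoproteins at 144 h moved by less. TXNRD3 changed by -0.40 ± 0.082 (adjusted p = 9.78e-04) and SELENOT, an oxidoreductase of the endoplasmic reticulum, by -0.17 ± 0.040 (adjusted p = 0.0031). MSRB1, a methionine sulfoxide reductase, changed by -0.20 ± 0.065 (adjusted p = 0.022), SELENOO by -0.20 (adjusted p = 0.035), SELENOS by -0.13 (adjusted p = 0.016) and SELENOF by -0.095 (adjusted p = 0.041). The calls for MSRB1, SELENOO and SELENOF each depended on single libraries, with adjusted p of up to 0.10, 0.14 and 0.14 when 1 was left out, and MSRB1 stood at -0.11 without TPN 144 h replicate 2. The SELENOO call was also lost without the filter on low values (adjusted p = 0.056), and the SELENOF call without that filter (adjusted p = 0.053), without the variance trend (adjusted p = 0.076) and with quantile normalization (adjusted p = 0.11).

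**Figure D3:**
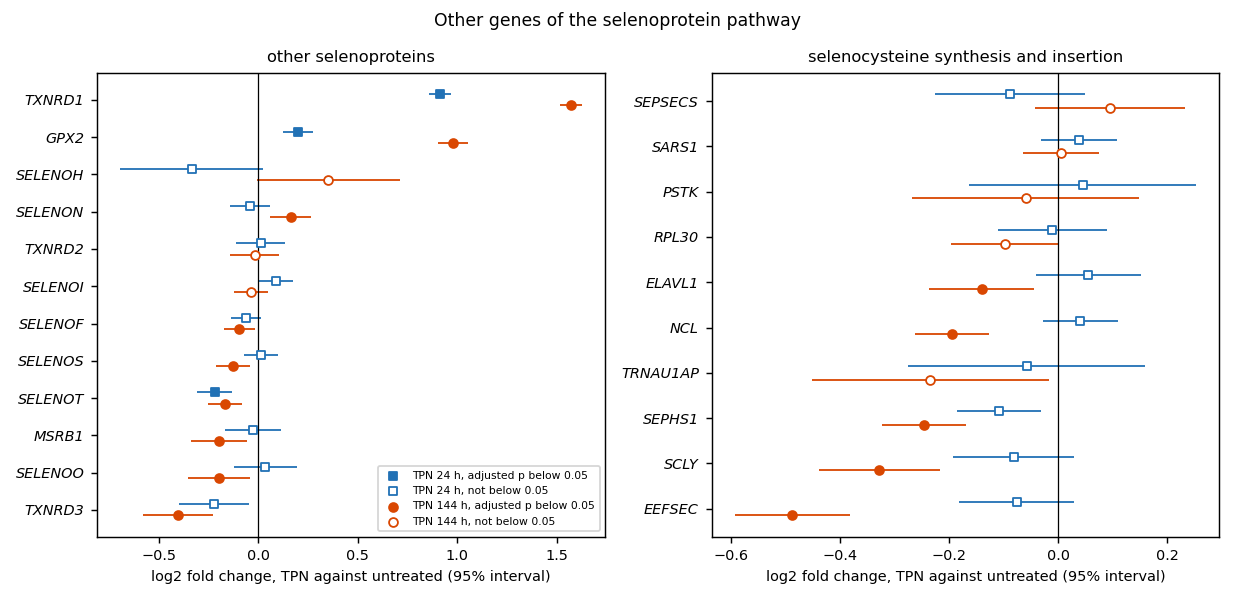
Log2 fold change with TPN against untreated spheroids (horizontal axes) for 12 other selenoproteins (left) and 10 genes of selenocysteine synthesis and insertion (right), with squares for 24 h, circles for 144 h, lines for 95% intervals and filled symbols for adjusted p below 0.05. TXNRD1 at 1.57 and GPX2 at 0.98 stand apart on the left, and the 5 filled symbols on the right, at 144 h, lie below 0.

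Of the 10 genes that make and insert selenocysteine, 0 were called in limma at 24 h, beside 10.5% of all genes, and 1 had an unadjusted p below 0.05. At 144 h, 5 were called, all lower, where 52.5% of all genes were called and 28.3% as lower, so the number of calls was near that of genes at large. EEFSEC, the elongation factor that brings the charged tRNA to the ribosome, had 15.6, 15.4 and 15.01 FPKM in untreated 144 h and 10.8, 11.7 and 10.3 in TPN 144 h, a log2 fold change of -0.49 ± 0.049 (adjusted p = 2.13e-06). SCLY, which frees selenium from selenocysteine for reuse, changed by -0.33 ± 0.052 (adjusted p = 1.25e-04) and SEPHS1 by -0.25 ± 0.036 (adjusted p = 6.80e-05). NCL and ELAVL1, RNA-binding proteins with many other targets, changed by -0.20 (adjusted p = 1.65e-04) and -0.14 (adjusted p = 0.018), the latter lost without untreated 144 h replicate 2 or TPN 144 h replicate 2 (adjusted p = 0.068 in both). SECISBP2 thus rose where EEFSEC, SEPHS2 and SCLY fell.

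Among receptors and binding proteins, LRP8, the receptor that takes up SELENOP in brain and testis, had 5.88, 6.93 and 6.28 FPKM in untreated 24 h, 8.81, 8.95 and 9.12 in TPN 24 h, 4.34, 4.44 and 4.47 in untreated 144 h, and 6.75, 6.71 and 6.48 in TPN 144 h. It was higher with TPN at both times, with log2 fold changes of 0.49 ± 0.058 (adjusted p = 9.95e-05) and 0.58 ± 0.058 (adjusted p = 2.12e-06). LRP1, a broad endocytic receptor, was higher at 144 h (0.36 ± 0.077, adjusted p = 0.0015). SELENBP1, a selenium-binding protein without selenocysteine, was lower at 144 h (-0.50 ± 0.080, adjusted p = 1.57e-04). LRP2, the SELENOP receptor of the kidney, was near 0.

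The remaining lists were short, and at 144 h 52.5% of all genes were called. Of cysteine counterparts, 2 were tested and GPX7 was lower at 144 h (-0.30, adjusted p = 0.0054). Of the ubiquitin ligase genes that remove truncated selenoproteins, 5 were tested and KLHDC2 was lower at 144 h (-0.30, adjusted p = 2.52e-04).

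The summed level of the 23 selenoprotein genes in the table shows how these changes balance. It was 2677 ± 21.4 FPKM (SD, n = 3) in untreated 24 h and 2742 ± 14.3 in TPN 24 h. It was 2463 ± 47.0 in untreated 144 h and 2759 ± 70.3 in TPN 144 h, or 0.431% and 0.478% of all FPKM. The sums with TPN were the higher ones, without overlap at either time. Without TXNRD1, GPX2 and GPX3 the sum was 1738 ± 30.01 FPKM in untreated 144 h and 1429 ± 41.7 in TPN 144 h, and 1786 and 1663 at 24 h. Those 3 were taken out because they had risen at 144 h, which helps to fix that direction, so the lower sum there says only that the higher total rests on them. The same holds at 24 h for TXNRD1 and GPX2, while GPX3 was not called in limma at that time (-0.086, adjusted p = 0.30). SELENOP made up 29.2% of the sum in untreated 144 h and 19.6% in TPN 144 h, GPX2 12.7% and 22.3%, TXNRD1 4.02% and 10.7%, and GPX3 12.7% and 15.2%.

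**Figure D4:**
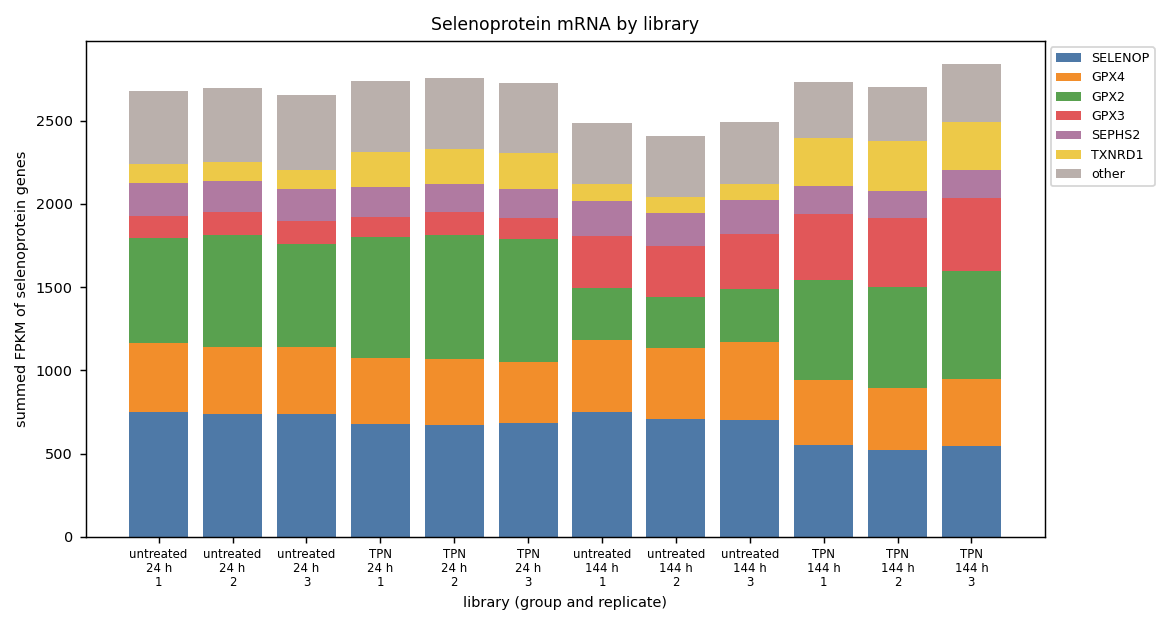
Summed FPKM of 23 selenoprotein genes (vertical axis, from 0) in each of the 12 libraries (horizontal axis, by group and replicate), with colours for 6 genes and grey for the rest. The SELENOP share at the base shrinks from 29.2% in untreated 144 h to 19.6% in TPN 144 h while the sum goes from 2463 to 2759 FPKM.

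Culture time alone also moved the members. Between untreated 144 h and untreated 24 h, 9 of the 10 were called, 5 higher and 4 lower, where 72.6% of all genes were called, 20.1% as higher and 52.4% as lower. The median of all genes was -0.18 on the log2 scale, and scaling by median ratios took it to -0.0074 and the shares of all genes to 33.2% higher and 33.7% lower, so time changes are read against that shift. These groups also serve as the controls of the TPN comparisons.

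GPX3 rose with time by 1.21 ± 0.048 (adjusted p = 9.55e-11) and SELENOK by 0.55 ± 0.048 (adjusted p = 2.16e-07). SECISBP2 rose by 0.25, GPX4 by 0.12 and SEPHS2 by 0.10, and the GPX4 call was lost without untreated 24 h replicate 2 or 3 or untreated 144 h replicate 3 (adjusted p = 0.056, 0.050 and 0.10). These 5 were higher under each of the 3 other scalings as well. With TPN, SELENOK, SEPHS2 and GPX4 thus lay lower at 144 h while time had raised them, and GPX3 and SECISBP2 were higher with both.

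SELENOM fell with time by 1.88 ± 0.36 on the log2 scale (adjusted p = 3.36e-04), by 1.11 with a pseudocount of 1 and by 1.31 without untreated 144 h replicate 1, and DIO1 by 1.22 ± 0.080 (adjusted p = 1.32e-08). GPX1 fell by 0.45 and SELENOW by 0.34, and all 4 were lower under each of the other scalings too. SELENOP was not called as deposited (-0.043, adjusted p = 0.22), but was higher by 0.14 (adjusted p = 0.0012) with median ratio scaling and lower (-0.073, adjusted p = 0.045) without untreated 144 h replicate 1. The summed stellate markers went from 124 to 129 FPKM down to 73.5 to 77.4 over the same time, with COL1A1 at 14.1, 16.3 and 14.9 FPKM in untreated 24 h and 2.38, 1.68 and 1.69 in untreated 144 h. Their part in the SELENOM and GPX1 results was not tested.

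Within TPN, 8 members were called between 144 h and 24 h, 3 higher and 5 lower, beside 76.2% of all genes. GPX3 rose by 1.71 ± 0.048 (adjusted p = 2.05e-12), or 3.28-fold, SECISBP2 by 0.42 and SELENOK by 0.18. SELENOP, not called over time in untreated spheroids, fell by 0.33 ± 0.031 (adjusted p = 2.68e-07) and stayed lower under every scaling. GPX1, DIO1 and SELENOM fell by 0.57, 0.96 and 1.06, and the SELENOM call was lost without TPN 24 h replicate 2 (adjusted p = 0.077). SEPHS2 changed by -0.090 (adjusted p = 0.019), which turned to 0.086 (adjusted p = 0.023) with median ratio scaling and was not called without TPN 24 h replicate 1 (adjusted p = 0.063) or TPN 144 h replicate 2 (adjusted p = 0.094). SELENOW was not called (-0.10, adjusted p = 0.077), but was when scaled to the same total (-0.12, adjusted p = 0.037) or without TPN 144 h replicate 1 (-0.15, adjusted p = 0.012). GPX4 was not called (0.012, adjusted p = 0.82), but was higher by 0.19 (adjusted p = 0.0019) with median ratio scaling.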

How the data were processed

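RNA of 12 spheroid libraries (strand-specific, DNBSEQ) was measured as FPKM per gene, computed by the authors. They cleaned reads with SOAPnuke, aligned them with HISAT2 2.0.4 and Bowtie2 2.2.5 on GRCh38.p13 and quantified with RSEM; whether counting used the strand is not given in the sources used here. FPKM sums are relative to each library, so a level is relative to the rest of its RNA. The deposited table held 16705 genes after 20 broken lines were skipped, and 0 value columns were left unmatched.

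Here log2(FPKM + 0.1) of the 11713 genes averaging 0.5 FPKM or more was fitted in limma 3.58.1 (R 4.3.3) with the 4 groups and a variance trend, with Benjamini-Hochberg adjustment over all genes. Fold changes are on that scale and understate changes of low genes. A call is an adjusted p below 0.05. Read counts were not used, and depth was estimated from steps in 102 short genes, 88.7% of whose values were within 0.2 of a whole number of fragments. All tests were two-sided. The p-values measure the spread between these libraries. The script was tested on simulated data.

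The members and lists were chosen with earlier results of these data known. Named were all members, up to 8 called genes per other list and comparison, uncalled list genes with values, and the 5 genes closest to SELENOP. Alternatives were 2 pseudocounts (0.01 and 1), 2 filters (none and a mean of 5), 3 scalings, fits without other groups or without the trend, a block for the replicate number, a fold threshold and leaving out each library.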

Additional observations from a re-analysis of the deposited data

Results flagged for a closer look

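For 9 of 21 selenoprotein genes tested, 1 of them SELENOH, from whose call nothing is read, the response to TPN was not the same at both times, by the interaction test in limma with adjusted p below 0.05, beside 30.4% of all genes. Among the members the difference (log2 fold change at 144 h less the one at 24 h) was 0.50 for GPX3, 0.24 for SELENOW, -0.29 for SELENOP, -0.37 for SELENOK and -0.20 for SEPHS2. Among the other selenoproteins it was 0.78 for GPX2 and 0.66 for TXNRD1, both with adjusted p below that of every member (2.89e-07 and 7.87e-08).

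It was also 0.69 for SELENOH (adjusted p = 0.041), a nuclear selenoprotein, and 0.20 for SELENON (adjusted p = 0.034), a calcium-sensing protein of the endoplasmic reticulum. SELENOH had at most 0.29 FPKM at 144 h and passed the filter on low values only through the 24 h groups, and its difference was 0.29 with a pseudocount of 1, so nothing is read from its call. The SELENOH and SELENON calls were lost when single libraries were left out, with adjusted p of up to 0.099 and 0.078.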

How the results depend on the processing

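The number of members called kept within 1.5 times its value under every alternative but the fold threshold, which left 0 at 24 h, 0 at 144 h, 0 for the interaction, 3 for untreated time and 3 for TPN time. Leaving out single libraries gave 2 to 3, 8 to 9, 4 to 6, 8 to 10 and 7 to 9 members in these comparisons. Apart from the fold threshold, 15 of 50 member results changed a call or sign under some alternative. With the 3 other scalings the TPN comparisons kept their signs.

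Signs turned for values that were not called in the main fit, except for SEPHS2 over TPN time. SEPHS2 was called with both signs there, at -0.090 (adjusted p = 0.019) as deposited and 0.086 (adjusted p = 0.023) with median ratio scaling. With TPN at 24 h, SELENOK was 0.021 without TPN 24 h replicate 3 (-0.082 to 0.021 with single libraries left out), and SELENOW was -0.018 without untreated 24 h replicate 2 and -0.0017 without TPN 24 h replicate 2 (-0.018 to 0.029). Over untreated time, SELENOP was 0.14 with median ratio scaling, which was a call (adjusted p = 0.0012), and 2.21e-05 with quantile normalization. Over TPN time, GPX4 was -0.0089 when scaled to the same total, -0.033 without TPN 24 h replicate 3 and -0.017 without TPN 144 h replicate 3 (-0.033 to 0.038 with single libraries left out), GPX4 also reached 0.19 (adjusted p = 0.0019) with median ratio scaling, SELENOW was 0.074 with median ratio scaling and 0.081 with quantile normalization, and SEPHS2 was 0.086 and 0.037 with the same 2 scalings.

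Scaling or the pseudocount changed the size of some called time effects by over 1.5 times without a change of call. With median ratio scaling, untreated time gave -0.27 for GPX1, -0.16 for SELENOW, 0.30 for GPX4, 0.28 for SEPHS2 and 0.43 for SECISBP2, and TPN time gave -0.15 for SELENOP and 0.36 for SELENOK. With quantile normalization GPX1 was -0.38 over TPN time, and with a pseudocount of 1 SELENOM was -0.70 there.

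The replicate block gave 3, 8, 5, 9 and 9 members in the same order. It ended the SELENOF call at 144 h (adjusted p = 0.052) and the interaction calls of SELENOH (adjusted p = 0.051) and SELENBP1 (adjusted p = 0.060), and it called SELENOW over TPN time (adjusted p = 0.040). Correlations of same-numbered libraries were low, from -0.083 to 0.15. Most libraries correlated best with their own number, those of replicate 3 in every pair of groups, but not all did. The correlations therefore do not settle whether the numbers pair the samples, and the main fit did not use the numbers. Genes near 1 FPKM, such as SELENOM, rest on few fragments, and with 3 libraries a group small changes of such genes cannot be seen.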
